A study of Mus musculus with 12 samples.

Results

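Mouse embryonic stem cells given a low dose of hydrogen peroxide were compared with cells kept in phosphate-buffered saline (PBS), on 7 of the 12 arrays of the series. Each array was an Affymetrix MG_U74Av2, on which sets of short oligonucleotides (probe sets) read 1 transcript each. The members were the 4 arrays titled with 100 µM H2O2 for 15 min (low dose) and the 3 titled with PBS alone (controls), chosen by title. The other 5 arrays came from cells given 5 mM for 30 min (high dose). They are used to share the estimate of the spread and for a direct test of where the doses differed. All cells were clone C2, a single clone of the E14tg2a stem cell line with 2 targeted I-SceI sites, recognition sequences of an endonuclease used to cut DNA. Both peroxide groups recovered for 1 h in maintenance medium before RNA was taken. The time the controls spent in PBS is not given in the sources used here, and their own label names no recovery, so peroxide and the return to medium cannot be told apart in comparisons with them. Nothing in the labels says that replicates were grown apart. The p-values therefore cover the spread between these samples alone, which may be technical, and precision is limited by the small number of arrays.

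Hydrogen peroxide crosses membranes and oxidises thiols, lipids and DNA. Cells answer sublethal doses along several routes. The transcription factor p53, released from its inhibitor Mdm2 after DNA damage, turns on genes of cell cycle arrest, repair and death. Immediate-early genes such as Fos and Egr1 are transcribed within minutes of a stimulus, without new protein synthesis, through serum response factor and CREB-family factors at their promoters. Nrf2, held back by Keap1, drives glutathione and thioredoxin genes, and MTF-1 drives metallothioneins when zinc is freed. Embryonic stem cells keep a network of pluripotency factors (Pou5f1, Sox2, Nanog, Klf4, Tbx3) beside a few cells that express genes of primitive endoderm, the yolk sac lineage of the blastocyst.

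Of 12488 probe sets on the array, 66 Affymetrix controls were left out and 8695 of the other 12422 passed a filter on low signal. At an adjusted p under 0.05 (limma, Benjamini-Hochberg over the 8695), 2087 probe sets (24.0%) differed between low dose and control, 1110 higher (12.8%) and 977 lower (11.2%). One probe set, the brightest, stood for each of 6414 genes. Of these genes 1578 passed (24.6%), of which 761 (11.9% of all) rose and 817 (12.7%) fell, and the control and low-dose signals did not overlap in 32.4%. A rise of at least 2-fold was seen in 209 genes (3.26%) and a fall of that size in 162 (2.53%). The split between directions moved with the scaling of the arrays. When arrays were scaled to a common median, 574 probe sets were higher and 1497 lower, so that 27.7% of calls were higher, against 53.2% with the deposited scaling and 44.6% after quantile normalization. The median change of all probe sets was 0.08 (log2) with the deposited scaling and -0.09 after median scaling. Without control replicate 2 the number lower was 648. Shares of members past the threshold are therefore read against the shares of all genes, and the signs of small changes against these medians. Counts of list members after median scaling are read against the 574 higher and 1497 lower of 8695 probe sets under that scaling.

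**Figure D1:**
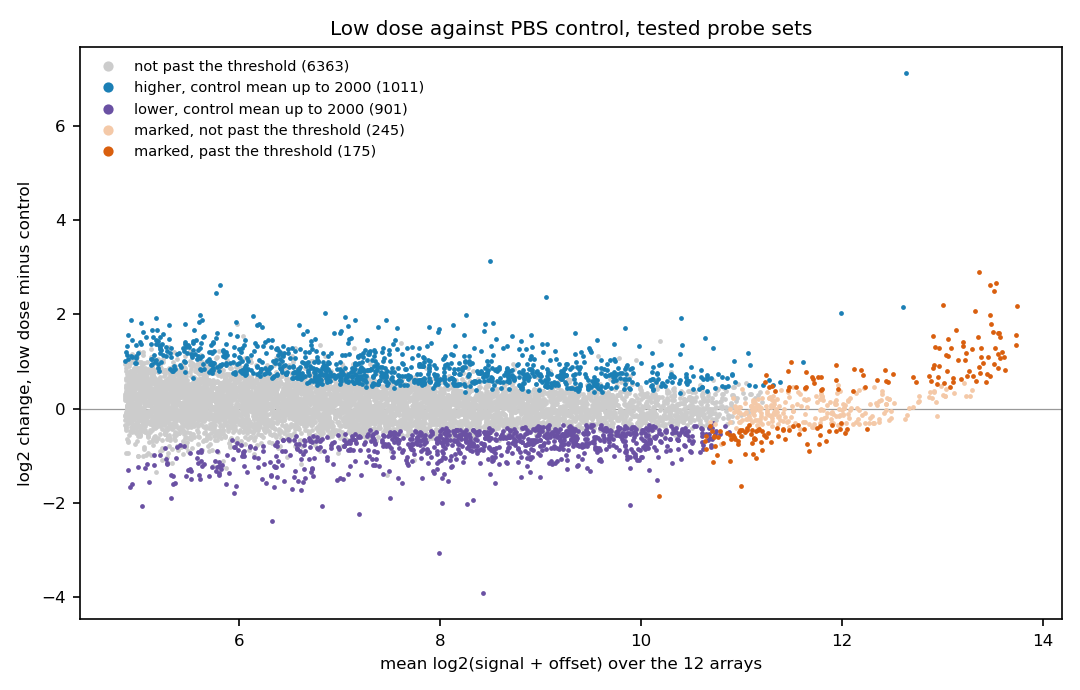
Log2 change (low dose minus control) of the 8695 tested probe sets against their mean log2 level over the 12 arrays, coloured by direction and by whether the control mean was above 2000 signal units (marked). Of the 420 marked probe sets 175 passed the threshold, and those at the far right lie above 0. The blue point at the top, at 7.13, is Rpl41.

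The top signals were higher on the low-dose arrays, though not at an adjusted p under 0.05. The brightest probe set read 7206 to 8904 on the control arrays and 14976 to 24225 on the low-dose arrays (exact two-sided permutation p = 0.0286, the smallest these group sizes allow, 0.0667 after adjustment over 7 measures). The reading of 14976 was that of Rpl41, which was dim in the controls. Probe sets above 5000 numbered 45 to 96 on the control arrays and 106 to 131 on the low-dose arrays. The median signal was 56.4 to 64.8 and 67.2 to 77.8 (exact permutation p = 0.0286 for each, 0.0667 after adjustment). In contrast 392 to 460 probe sets read above 2000 on the control arrays and 389 to 427 on the low-dose arrays (exact permutation p = 0.6). The 420 probe sets with a control mean above 2000, which stand for 313 genes, are therefore marked as open to a ceiling on the control arrays. Among marked genes 55 (17.6%) rose and 61 (19.5%) fell. Whether a ceiling set the changes of the marked genes that rose was not tested. RNA integrity, read as the 3′/5′ signal ratio of the control probe sets for Actb, was 0.871 to 1.99 in the controls and 1.11 to 1.49 at the low dose (exact permutation p = 0.914). The same ratio for Gapdh was 0.588 to 0.831 in the controls and 0.780 to 0.931 at the low dose (exact permutation p = 0.0857, 0.12 after adjustment over the 7 measures). Its part in the results was not tested.

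Of 11 embryonic stem cell markers, all tested, the summed signal was 26639 to 29754 in the controls and 33054 to 38802 at the low dose, with 4 higher and 2 lower, so markers of the labelled cell type were present in every sample. Of those higher, Nanog, Sox2 and Dppa5a were marked genes and Klf4 was not. Whether a ceiling on the control arrays set the difference in the sum was not tested. Primitive endoderm markers were also present. Of 14 fibroblast markers on the array (the feeder cells on which stem cells are often grown), 9 passed the filter, 1 was higher (Fn1, also made by endoderm) and 1 lower (Thy1). Their sum was 1306 to 1637 in the controls and 1594 to 2068 at the low dose. Of the collagens Col1a2 had a mean of 385 in the controls and 493 at the low dose and Col1a1 74.8 and 99.2, and neither passed the test, nor did the dimmer Vim and Lum. Acta2, Col3a1, Postn, Dcn and Pdgfrb did not pass the filter on low signal. The part of such cells in the results was not tested. Of the mesoderm markers Kdr and Hand1 neither passed the test, and of the 4 tested neuroectoderm markers 1 was higher, the dim Neurod1. The Neurod1 call was lost with quantile normalization and leaving out control replicate 3 (limma, adjusted p = 0.0566 and 0.0629).

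**Figure D2:**
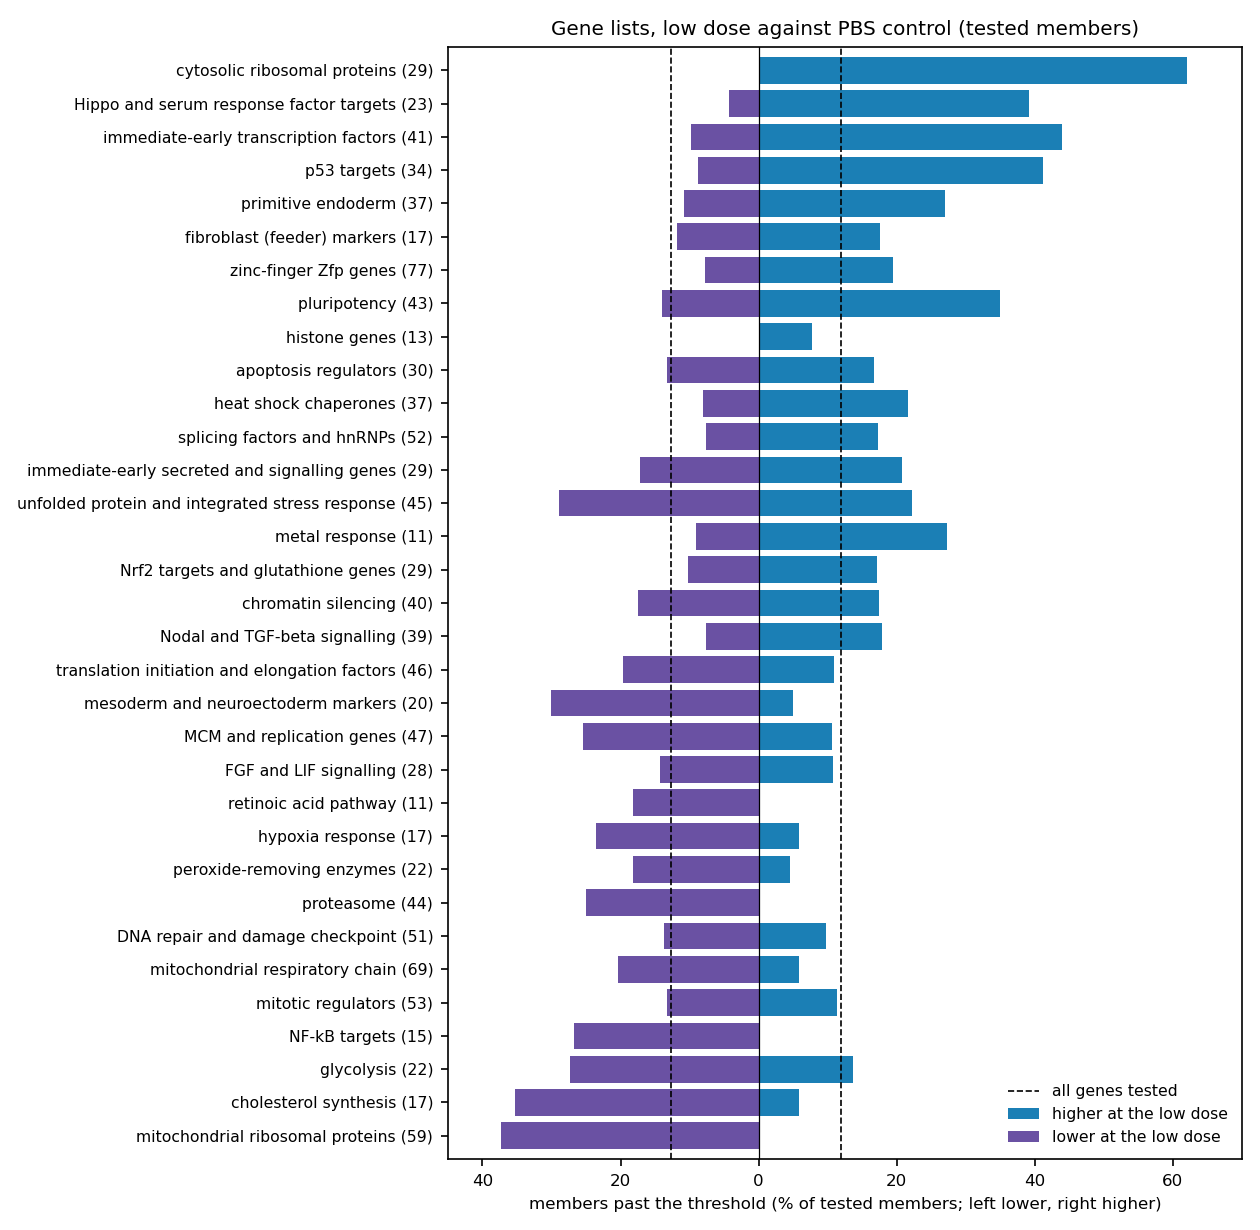
Share of tested members of each gene list that were higher (right) or lower (left) at the low dose, at an adjusted p under 0.05, ordered by the median log2 change, with the number tested in brackets. Dashed lines mark the shares over all 6414 genes, 11.9% higher and 12.7% lower.

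Immediate-early transcription factors and p53 targets moved up at the low dose, and promoters of members with a motif of these pathways are shown first. Each sequence is the 250 bases before the RefSeq transcription start (GRCm38.p6), written 5′ to 3′ on the strand of the gene, with the motif in capitals and positions counted back from the start. In the p53 targets the capitals mark matches to the p53 decamer, 1 of the 2 copies that make up its response element (searched by name on both strands), which 7.13% of 32851 RefSeq promoter windows of the same length hold. Of 13 p53 targets that rose and had a counted window (1 chromosome was left out, as given below), 3 held it, and of 2 that fell 1 did. Over all 27025 gene symbols with a promoter 8.2% did. A higher share can follow from drawing the list from known p53 targets, so it is not read as a result.
Cdkn1a: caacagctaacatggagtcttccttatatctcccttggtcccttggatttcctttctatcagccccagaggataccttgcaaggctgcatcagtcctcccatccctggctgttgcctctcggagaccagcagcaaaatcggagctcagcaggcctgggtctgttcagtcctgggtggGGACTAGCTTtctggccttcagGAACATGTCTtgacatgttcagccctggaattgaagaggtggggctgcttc
Mdm2: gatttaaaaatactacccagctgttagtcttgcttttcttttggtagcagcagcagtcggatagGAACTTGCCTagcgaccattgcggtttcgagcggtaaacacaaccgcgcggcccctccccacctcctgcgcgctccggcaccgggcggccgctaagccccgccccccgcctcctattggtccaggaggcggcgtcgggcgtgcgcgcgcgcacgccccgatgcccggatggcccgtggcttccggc
Ccng1: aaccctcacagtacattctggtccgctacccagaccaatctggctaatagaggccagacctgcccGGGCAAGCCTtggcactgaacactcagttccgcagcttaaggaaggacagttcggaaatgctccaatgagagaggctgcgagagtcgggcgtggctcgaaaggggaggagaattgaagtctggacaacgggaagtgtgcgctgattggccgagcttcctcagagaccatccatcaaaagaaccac
Gadd45a: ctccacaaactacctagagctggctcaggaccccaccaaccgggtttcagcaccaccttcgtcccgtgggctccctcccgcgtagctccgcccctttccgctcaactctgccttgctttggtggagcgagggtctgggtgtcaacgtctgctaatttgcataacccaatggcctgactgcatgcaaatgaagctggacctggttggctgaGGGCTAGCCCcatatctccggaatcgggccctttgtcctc
The Cdkn1a window is chr17:29090729-29090978 (+ strand) and held 2 matches, starting at -73 and -51. The Mdm2 window, chr10:117710759-117711008 (- strand), held 1 at -186, and the Ccng1 window, chr11:40755287-40755536 (- strand), 1 at -185. Gadd45a, which fell, held 1 at -40 in chr6:67037408-67037657 (- strand). A match is a description of letters, not a measured binding site, and these windows leave out introns and more distant sequence.

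In the immediate-early genes the capitals mark the core of the cyclic AMP response element, TGACG on either strand, where CREB and ATF factors bind. It is common, in 17.8% of all windows. The CArG box of serum response factor (by name, 1.47%) and the AP-1 site TGANTCA (6.75%) were searched as well. Of 13 members that rose and had a counted window, 9 held at least 1 of the 3 motifs in at least 1 window. Over all 27025 gene symbols with a promoter 27.4% did so. None of the 9 held the CArG box in a counted window. These windows leave out introns and more distant sequence, and members that rose without a counted window are not covered. Whether these genes lack sites of serum response factor was therefore not tested. Windows on 1 chromosome were left out of the counts of members of both lists, but not out of the shares over all symbols.
Fos: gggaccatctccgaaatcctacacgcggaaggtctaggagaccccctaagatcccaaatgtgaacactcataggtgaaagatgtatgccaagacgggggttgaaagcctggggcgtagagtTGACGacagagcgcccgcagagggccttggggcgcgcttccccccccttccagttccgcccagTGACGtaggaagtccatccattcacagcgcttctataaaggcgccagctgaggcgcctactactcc
Atf3: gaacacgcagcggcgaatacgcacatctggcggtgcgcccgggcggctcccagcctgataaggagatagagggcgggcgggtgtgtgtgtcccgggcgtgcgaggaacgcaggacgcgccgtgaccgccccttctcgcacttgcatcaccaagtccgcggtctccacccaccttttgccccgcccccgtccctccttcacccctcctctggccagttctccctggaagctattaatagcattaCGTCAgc
Klf4: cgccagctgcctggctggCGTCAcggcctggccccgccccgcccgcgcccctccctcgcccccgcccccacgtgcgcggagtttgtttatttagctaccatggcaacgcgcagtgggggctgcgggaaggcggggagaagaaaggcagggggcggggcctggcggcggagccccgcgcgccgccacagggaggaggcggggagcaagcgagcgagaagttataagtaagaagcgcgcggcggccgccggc
The Fos window is chr12:85473640-85473889 (+ strand) and held 2 such cores, at -129 and -66. The Atf3 window, chr1:191183334-191183583 (- strand), held 1 at -7, and the Klf4 window, chr4:55532476-55532725 (- strand), 1 at -232.

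The p53 list was drawn up from known targets with earlier results of these data known, so it is not independent support. Of 36 members on the array 34 passed the filter. Of these 14 rose (41.2%) and 3 fell (8.82%), against 11.9% and 12.7% of all genes, with a median log2 change of 0.43 against 0.04 over all genes. After median scaling 8 rose and 4 fell, with a median of 0.25. Plk2, a polo-like kinase that p53 induces, read 1055, 934 and 599 in the controls and 2833, 3526, 3627 and 2921 at the low dose. This was a change of 1.92 ± 0.17 (SE) on the log2 scale, 3.79-fold (adjusted p = 3.6e-06). Every low-dose array lay far above the highest control array.

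Mdm2, the ubiquitin ligase that degrades p53 and is itself a p53 target, read 832, 690.1 and 551 in the controls and 2036, 2832, 2594 and 1770.2 at the low dose. This was a change of 1.72 ± 0.22 (SE) on the log2 scale, 3.30-fold (adjusted p = 1.0e-04). The groups did not overlap. Ccng1, which encodes cyclin G1, read 379, 383 and 305 in the controls and 1115, 969, 1366 and 879.8 at the low dose, a change of 1.57 ± 0.18 (SE) on the log2 scale, 2.96-fold (adjusted p = 3.9e-05). Cdkn1a, the p21 inhibitor of cyclin-dependent kinases, read 181, 310.0 and 273 in the controls and 535, 409, 419 and 671 at the low dose, a change of 0.98 ± 0.20 (SE) on the log2 scale, 1.97-fold (adjusted p = 0.00241). Its rise was smaller than that of Mdm2 in log2 terms, though a second Cdkn1a probe set rose too, by 1.08 (adjusted p = 0.00952). Fbxw7, the substrate receptor of a ligase that degrades cyclin E and Myc, read 60.8, 71.9 and 88.9 in the controls and 217, 242, 308 and 243 at the low dose, and rose by 1.65 on the log2 scale (adjusted p = 2.9e-05). The pleckstrin-domain genes Phlda3, an inhibitor of Akt, and Phlda1 rose by 1.32 and 1.42 (adjusted p = 1.9e-04 and 0.00755), and the ephrin receptor gene Epha2 by 0.75 (adjusted p = 0.0013).

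Other p53 targets went the other way or did not clear the test. Gadd45a, a growth arrest gene usually induced by damage, read 396, 397 and 431 in the controls and 292, 232, 264 and 207 at the low dose, a change of -0.70 ± 0.15 (SE) on the log2 scale, 1.63-fold lower (adjusted p = 0.00317). Sat1, which acetylates polyamines for export, read 916, 951 and 1045 in the controls and 323, 647, 556 and 328 at the low dose, a change of -1.11 ± 0.22 (SE) on the log2 scale, 2.17-fold lower (adjusted p = 0.0022). The nucleotide excision repair gene Xpc was the third member lower, at -0.66 (adjusted p = 0.0227), and its call was lost with a fit of the 7 arrays alone, leaving out control replicates 1 and 2 and leaving out low-dose replicates 2 and 3 (adjusted p = 0.0538 to 0.0669). Btg2, an antiproliferative gene that is both a p53 target and an immediate-early gene, read 1054, 697 and 704 in the controls and 1005, 1781, 1149 and 1224 at the low dose, with low-dose replicate 1 below control replicate 1. Its log2 change of 0.64 (adjusted p = 0.0197) was lost with median scaling, leaving out control replicates 2 and 3 and leaving out low-dose replicate 2 (adjusted p = 0.0558 to 0.15).

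The doses could be compared directly by the contrast of high minus low dose. Of the 34 p53 targets 17 were lower and 2 higher at the high dose than at the low dose, where 29.0% of all genes differed in either direction. Mdm2 was lower at the high dose by -2.12 ± 0.20 (SE, adjusted p = 1.2e-06), Ccng1 by -1.86 ± 0.16 (SE, adjusted p = 6.6e-07), Plk2 by -1.85 ± 0.15 (SE, adjusted p = 4.3e-07) and Cdkn1a by -1.02 ± 0.17 (SE, adjusted p = 3.7e-04). At the high dose Mdm2 read 421, 379.8, 721, 668 and 459, all below the low-dose arrays. The high dose was both more concentrated and longer, so these tests compare the treatments as given.

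**Figure D3:**
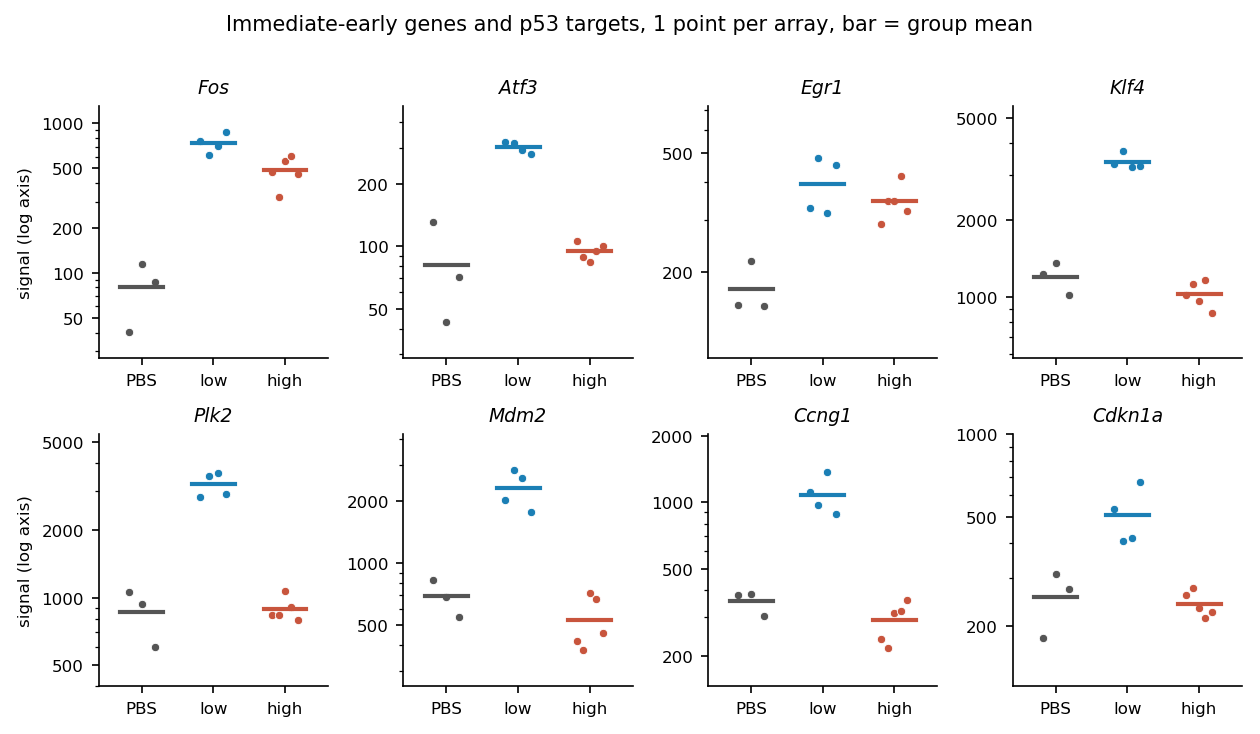
Signal of 4 immediate-early genes (top) and 4 p53 targets (bottom) on each array, on a log axis, for PBS controls (n = 3), low dose (n = 4) and high dose (n = 5), with bars at the group means. In all 8 panels every low-dose point lies above every control point, while the high-dose points of Fos and Egr1 stay near the low-dose points and those of Mdm2 and Klf4 do not.

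The list of immediate-early transcription factors also holds early genes of other kinds, such as Btg1, Btg2 (also named with the p53 targets) and Zfp36l1. It numbered 44 genes on the array, of which 41 passed the filter. Of these 18 rose (43.9%) and 4 fell (9.76%), with a median of 0.48, and after median scaling 11 rose and 4 fell, with a median of 0.30. Fos, the partner of Jun in AP-1, read 40.3, 115 and 86.9 in the controls and 768, 616, 710.4 and 878 at the low dose. This was a change of 3.14 ± 0.26 (SE) on the log2 scale, 8.80-fold (adjusted p = 2.8e-06), the largest rise of the list. Fosb, its close relative, read 90.8, 60.5 and 93.7 in the controls and 179, 194, 171 and 254 at the low dose, a change of 1.20 ± 0.20 (SE) on the log2 scale, 2.29-fold (adjusted p = 5.3e-04). Atf3, a repressor of the ATF family induced by many stresses, read 131, 43.0 and 70.9 in the controls and 320.5, 318, 292 and 279 at the low dose, a change of 1.88 ± 0.24 (SE) on the log2 scale, 3.69-fold (adjusted p = 9.3e-05), and its second probe set rose by 1.58 (adjusted p = 0.00172). Egr1, a zinc-finger factor and a standard readout of serum response factor, read 156, 219 and 155 in the controls and 328, 481, 316 and 456 at the low dose, a change of 1.11 ± 0.18 (SE) on the log2 scale, 2.16-fold (adjusted p = 5.8e-04). In these genes no low-dose array overlapped a control array.

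Krüppel-like factors were among the members that rose. Klf4, an immediate-early gene that is also a factor of the pluripotency network, read 1232, 1354 and 1017 in the controls and 3306, 3737, 3232 and 3244 at the low dose, a change of 1.49 ± 0.13 (SE) on the log2 scale, 2.81-fold (adjusted p = 3.6e-06). Klf6 read 273, 151 and 187 in the controls and 459.9, 456, 455 and 451 at the low dose, with a log2 change of 1.16 (adjusted p = 2.8e-04). Both were higher on every low-dose array. Klf2 rose by 0.59 (adjusted p = 0.021), a call lost with median scaling, a fit of the 7 arrays alone, the replicate block, leaving out control replicate 1 and leaving out low-dose replicate 1 (adjusted p = 0.0536 to 0.0806).

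Antiproliferative and helix-loop-helix members also changed. Btg1, which restrains growth through mRNA deadenylation, read 209.7, 259.5 and 233 in the controls and 949.6, 827, 882 and 725 at the low dose, a change of 1.81 ± 0.16 (SE) on the log2 scale, 3.50-fold (adjusted p = 3.6e-06). Hes1, the repressor downstream of Notch, rose by 1.13 (adjusted p = 3.1e-04) and the Myc relative Mycl by 0.95 (adjusted p = 8.0e-04). The Id genes, whose proteins block basic helix-loop-helix factors, split. Id2 read 267, 155 and 124 in the controls and 653, 404, 544 and 549 at the low dose, a rise of 1.56 (adjusted p = 4.6e-04), while Id1, a direct target of BMP signalling, read 899, 651 and 751 in the controls and 269, 262, 232 and 337 at the low dose, a change of -1.45 ± 0.17 (SE) on the log2 scale, 2.73-fold lower (adjusted p = 4.9e-05). Id4, counted with the TGF-beta genes, read 43.1, 65.2 and 71.8 in the controls and 311, 213, 286 and 292 at the low dose, a change of 2.04 ± 0.23 (SE) on the log2 scale, 4.10-fold (adjusted p = 3.0e-05).

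Myc, the growth-promoting factor that many stimuli induce early, fell. It read 87.3, 78.3 and 80.4 in the controls and 26.6, 20.8, 25.3 and 31.2 at the low dose, a change of -1.36 ± 0.23 (SE) on the log2 scale, 2.57-fold lower (adjusted p = 6.3e-04). The circadian repressor Bhlhe40 read 85.3, 189 and 228 in the controls and 95.3, 55.5, 57.2 and 63.5 at the low dose, a change of -1.11 on the log2 scale (adjusted p = 0.00711), with control replicate 1 inside the low-dose range. Ier3, an early gene linked to survival, was lower by the test (-1.07, adjusted p = 0.0399), with control replicate 1 again among the low-dose values, and the call was lost with no filter, no variance trend, a fit of the 7 arrays alone, the replicate block, leaving out control replicates 2 and 3 and leaving out low-dose replicates 1, 2, 3 and 4 (adjusted p = 0.0517 to 0.2). Without control replicate 1 the change was -1.69. Ier2 was higher by 0.37 (adjusted p = 0.0463), a call lost with median scaling, no filter, no variance trend, the replicate block, leaving out control replicates 1, 2 and 3, leaving out high-dose replicates 1, 3, 4 and 5 and leaving out low-dose replicates 1, 3 and 4 (adjusted p = 0.0514 to 0.441). Zfp36l1, which promotes decay of AU-rich mRNAs, rose by 0.88 (adjusted p = 0.0192), a call lost with median scaling, leaving out control replicates 2 and 3 and leaving out low-dose replicate 1 (adjusted p = 0.0586 to 0.0937). Junb did not pass on its brighter probe set (0.40, adjusted p = 0.198), while the dimmer one rose by 0.85 (adjusted p = 0.0316). Jun was below the filter on low signal.

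Fos, Fosb and Egr1 did not pass the test between the doses. In the high minus low contrast Fos was -0.62 ± 0.23 (SE, adjusted p = 0.0525), Fosb -0.25 ± 0.17 (SE, adjusted p = 0.309) and Egr1 -0.18 ± 0.16 (SE, adjusted p = 0.456), none past the threshold, which does not show that the doses acted alike. Other members were lower at the high dose, Klf4 by -1.71 ± 0.12 (SE, adjusted p = 5.8e-08), Btg1 by -1.80 ± 0.14 (SE, adjusted p = 2.5e-07) and Atf3 by -1.57 ± 0.21 (SE, adjusted p = 5.2e-05). Of the 41 members 14 were lower at the high dose than at the low dose and 4 were higher, where 29.0% of all genes differed in either direction.

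Targets of the Hippo pathway and of serum response factor in the cytoskeleton, 23 tested of 31 on the array, rose in 9 cases (39.1%) and fell in 1 (4.35%), with a median of 0.49 (0.30 after median scaling). Ccn2 (connective tissue growth factor), a standard target of Yap and Tead, read 613, 226 and 190.1 in the controls and 855, 532, 767 and 880.1 at the low dose, a change of 1.29 ± 0.30 (SE) on the log2 scale, 2.45-fold (adjusted p = 0.00554). Control replicate 1 lay above low-dose replicate 2. Amotl2, an angiomotin that binds and restrains Yap and is itself a Yap target, read 368, 312 and 229 in the controls and 702, 849, 588 and 963 at the low dose, a change of 1.33 ± 0.19 (SE) on the log2 scale, 2.51-fold (adjusted p = 2.4e-04). Its relative Amot rose by 1.09 (adjusted p = 3.6e-04), from 216, 240.4 and 205 to 440.2, 466, 557 and 468. Among cytoskeletal members the focal adhesion gene Vcl (vinculin) rose by 0.77 (adjusted p = 0.00205) and the tropomyosin gene Tpm4 by 0.74 (adjusted p = 0.00315). The member that fell, the transcription factor gene Tead2, was at -0.70 (adjusted p = 0.0406), a call lost with no filter, no variance trend, a fit of the 7 arrays alone, leaving out control replicates 1 and 2 and leaving out low-dose replicates 2 and 3 (adjusted p = 0.0589 to 0.19). Amot was lower at the high dose than at the low dose by -3.44 ± 0.15 (SE, adjusted p = 3.7e-10), Amotl2 by -1.80 ± 0.17 (SE, adjusted p = 1.5e-06) and Ccn2 by -2.16 ± 0.26 (SE, adjusted p = 1.8e-05).

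Early genes for secreted and signalling proteins, 29 tested of 41 on the array, rose in 6 cases (20.7%) and fell in 5 (17.2%), with a median of 0.09. After median scaling 3 rose and 6 fell. The number that rose was 3 without control replicate 3, and the number that fell was 2 without control replicate 2 and 3 without control replicate 3 or low-dose replicate 1, 2 or 3. Fst (follistatin), a secreted trap for activins, read 42.4, 26.1 and 5.17 in the controls and 156, 181, 118 and 183 at the low dose, a change of 2.45 ± 0.44 (SE) on the log2 scale, 5.45-fold (adjusted p = 0.00112), or 1.65 with 4 times the offset. The groups of values stood apart. Trib3, a pseudokinase of the integrated stress response, fell, and is described with that pathway.

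Of 29 tested Nrf2 targets and glutathione genes 5 rose (17.2%) and 3 fell (10.3%), with a median of 0.08. After median scaling 4 rose and 5 fell, with a median of -0.11, and 1 fell without control replicate 2 or without the marked probe sets. Some well-known targets did not pass. Hmox1, the haem oxygenase that strong oxidants induce, read 1041, 1145 and 985 in the controls and 1073, 1269.8, 1047 and 1079 at the low dose, and its log2 change was 0.08 (adjusted p = 0.702). Txnrd1, thioredoxin reductase, was at 0.21 (adjusted p = 0.252). In both genes the low-dose and control arrays overlapped. Hmox1 was higher at the high dose than at the low dose by 0.58 ± 0.11 (SE, adjusted p = 0.00111).

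Members that rose were glutathione transferases and the factor itself. Gstm2 read 79.9, 86.8 and 107 in the controls and 182, 297, 185 and 186 at the low dose, a change of 1.11 ± 0.21 (SE) on the log2 scale, 2.16-fold (adjusted p = 0.00139), and its second probe set rose by 1.61 (adjusted p = 1.98e-04). Gstm5 rose by 0.69 (adjusted p = 0.00487), while its 2 dimmer probe sets did not pass (0.27 and 0.45). Nfe2l2, which encodes Nrf2, read 466, 573 and 521 in the controls and 847, 902, 907 and 784 at the low dose, a change of 0.72 ± 0.14 (SE) on the log2 scale, 1.65-fold (adjusted p = 0.00165). Gsta2, dim in every sample, read 9.58, 20.2 and 10.7 in the controls and 29.5, 85.2, 42.9 and 54.9 at the low dose, a rise of 1.38 (adjusted p = 0.00952), or 0.77 with 4 times the offset. The ferritin heavy chain gene Fth1, a marked gene, was at -0.47 on its brighter probe set (adjusted p = 0.011) and rose by 1.01 (adjusted p = 0.00535) on the other, so its direction differed between probe sets. Of 22 tested peroxide-removing enzymes (catalase, peroxiredoxins, glutathione peroxidases and their partners) 1 rose (4.55%) and 4 fell (18.2%), with a median of -0.11. The number that fell was 0 to 2 in limma's test when any 1 of the 3 control arrays or of low-dose replicates 2, 3 and 4 was left out (5 at an unadjusted p under 0.05 with all arrays). The median over the 22 enzymes of the mean signal was 469, and 20.7% of all genes with a mean signal from 300 to 1000 fell. The 1 that rose, the secreted peroxidase Gpx3, was at 0.78 (adjusted p = 0.016), lost with the replicate block and leaving out control replicate 1 (adjusted p = 0.0551 to 0.077).

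Metallothioneins, cysteine-rich proteins that bind zinc and copper and take up oxidants, were higher. Of 11 tested genes of the metal response 3 rose (27.3%) and 1 fell (9.09%, Fth1). Mt1 read 2676, 1674 and 1461 in the controls and 6753, 9536, 8097 and 6764 at the low dose, a change of 2.04 ± 0.21 (SE) on the log2 scale, 4.10-fold (adjusted p = 1.5e-05). Mt2, a marked gene, read 4841, 1999 and 1936 in the controls and 10681, 14746, 14312 and 10214 at the low dose, a change of 2.21 ± 0.26 (SE) on the log2 scale, 4.62-fold (adjusted p = 3.7e-05). In both, control replicate 1 was the highest control array and still below every low-dose array. Mt1 was not marked, though its control replicate 1 read above 2000. Slc30a1, the zinc exporter that MTF-1 controls together with the metallothioneins, read 27.8, 28.4 and 31.8 in the controls and 104, 75.6, 80.4 and 115 at the low dose, a change of 1.38 ± 0.22 (SE) on the log2 scale, 2.61-fold (adjusted p = 4.6e-04). Its signals on all 7 arrays were below 2000.

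Heat shock chaperones, 37 tested of 40 on the array, rose in 8 cases (21.6%) and fell in 3 (8.11%), with a median of 0.13 (-0.06 after median scaling, with 6 higher and 6 lower). Without the marked probe sets 5 rose and 1 fell, and after quantile normalization 10 rose and 7 fell. The stress-inducible pair Hspa1a and Hspa1b did not pass, at 0.68 (adjusted p = 0.063) and 0.62 (adjusted p = 0.0589). Hspa1a read 73.0, 61.4 and 64.5 in the controls and 139, 90.4, 89.1 and 139 at the low dose, without overlap, and it was higher at the high dose than at the low dose by 2.37 ± 0.22 (SE, adjusted p = 1.5e-06). Among those that rose, Hspb8, a small chaperone of selective autophagy, read 149, 243 and 216 in the controls and 465, 453, 554 and 589 at the low dose, a change of 1.32 ± 0.18 (SE) on the log2 scale, 2.50-fold (adjusted p = 1.2e-04). Dnajb1, the partner of Hsp70, rose by 0.72 (adjusted p = 8.9e-04). Hsp90aa1, the inducible form of Hsp90 and a marked gene, read 3169.5, 2338 and 3475 in the controls and 7645, 11062, 8536 and 7749.6 at the low dose, a rise of 1.55 (adjusted p = 4.5e-04). The mitochondrial co-chaperonin Hspe1, also marked, rose by 0.82 (adjusted p = 0.00107), and the marked chaperonin subunit gene Cct7 fell by 0.76 on the log2 scale (adjusted p = 4.8e-04).

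The unfolded protein response and the integrated stress response, 45 tested genes, had 10 members that rose (22.2%) and 13 that fell (28.9%), with a median of 0.08. After median scaling 5 rose and 13 fell. The median over the 45 genes of the mean signal was 573, and 20.7% of all genes with a mean signal from 300 to 1000 fell. Dnajb9, a co-chaperone induced by the Ire1 and Xbp1 branch, read 68.0, 83.1 and 83.4 in the controls and 274, 189, 243 and 263 at the low dose, a change of 1.51 ± 0.23 (SE) on the log2 scale, 2.85-fold (adjusted p = 3.6e-04), and its second probe set rose by 1.73 (adjusted p = 2.45e-04). Hspa5 (BiP), the main chaperone of the compartment and a marked gene, read 2698, 1925 and 1942 in the controls and 3685, 3607, 3830.1 and 3197 at the low dose, a rise of 0.72 (adjusted p = 0.00169). Canx, the lectin chaperone calnexin, read 127, 127 and 144 in the controls and 243, 304, 234 and 206 at the low dose, a rise of 0.84 (adjusted p = 0.00144).

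Members that fell included enzymes of amino acid synthesis and tRNA synthetases, picked here after their values were seen and not counted as a list of their own. Trib3 read 184, 234 and 228 in the controls and 90.8, 88.2, 80.4 and 83.5 at the low dose, a change of -1.23 ± 0.18 (SE) on the log2 scale, 2.34-fold lower (adjusted p = 2.3e-04). Psat1 and Psph, enzymes of serine synthesis, were lower on every low-dose array. Psat1, a marked gene, read 3534, 2789.9 and 2797 in the controls and 1671, 1928, 1869.7 and 1707 at the low dose, and Psph read 1130.0, 1199 and 1364 in the controls and 701, 669.9, 711 and 653 at the low dose. Their log2 changes were -0.75 and -0.84 (adjusted p = 4.6e-04 and 1.2e-04). The tRNA synthetase genes Sars, Mars1, Aars and Tars were at -0.99, -0.86, -0.81 and -0.66 (adjusted p = 0.00336, 0.00343, 4.4e-04 and 0.00554), and the arginine transporter gene Slc7a3 at -0.83 (adjusted p = 0.00467). These genes are targets of Atf4, whose own signal read 2035, 1973 and 1986 in the controls and 2585, 3754, 3082 and 2627 at the low dose. Atf4 rose by 0.57 (adjusted p = 0.00761), a call lost with median scaling (adjusted p = 0.12). The asparagine synthetase gene Asns, another Atf4 target and a marked gene, went up and not down, by 0.68 (adjusted p = 0.00624) and by 1.00 on its dimmer probe set (adjusted p = 0.00144). The call of the brighter one was lost with median scaling and quantile normalization (adjusted p = 0.0844 to 0.459). Ddit3 (CHOP) did not pass, at -0.28 (adjusted p = 0.708). The high dose differed, with Sars higher than at the low dose by 1.66 ± 0.18 (SE, adjusted p = 7.8e-06), Psat1 by 1.57 ± 0.11 (SE, adjusted p = 4.9e-08) and Trib3 by 1.23 ± 0.16 (SE, adjusted p = 3.0e-05).

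Of 39 tested Nodal, BMP and TGF-beta genes 7 rose (17.9%) and 3 fell (7.69%), with a median of 0.04. Nodal, the ligand of the TGF-beta family that patterns the early embryo, read 312, 442 and 432 in the controls and 967, 699, 698 and 945 at the low dose, a change of 1.04 ± 0.17 (SE) on the log2 scale, 2.06-fold (adjusted p = 6.2e-04). Bmp4, which acts with LIF to hold stem cells undifferentiated and induces Id1, read 472, 474 and 509.8 in the controls and 252, 312, 294 and 292 at the low dose, a change of -0.74 ± 0.13 (SE) on the log2 scale, 1.67-fold lower (adjusted p = 0.00121), and its second probe set fell by 0.98 on the log2 scale (adjusted p = 0.00342). Ltbp3, which stores latent TGF-beta in the matrix, rose by 1.61 (adjusted p = 0.00524) at a dim signal of 104, 126, 75.8 and 55.9 on the low-dose arrays.

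Of 28 tested FGF and LIF genes 3 rose (10.7%) and 4 fell (14.3%), shares near those of all genes (2 and 7 after median scaling). Fgf17, a ligand of the Fgf8 group, read 149, 96.8 and 81.6 in the controls and 30.7, 3.77, 5.22 and 17.2 at the low dose, a change of -2.40 ± 0.33 (SE) on the log2 scale, 5.26-fold lower (adjusted p = 1.5e-04), or -1.46 with 4 times the offset. The receptor genes Fgfr3 and Fgfr2 rose by 1.34 and 1.14 (adjusted p = 4.4e-04 and 0.00535), though a dimmer Fgfr2 probe set did not pass (0.37). Etv4, an ETS factor induced by FGF signalling, was at -1.02 (adjusted p = 4.2e-04), while its second probe set was at 0.60 (adjusted p = 0.0514), of opposite sign.

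Pluripotency genes, 43 tested of 43 on the array, rose in 15 cases (34.9%) and fell in 6 (14.0%), with a median of 0.24. After median scaling 7 rose and 9 fell, while over all probe sets 574 rose and 1497 fell under that scaling. Without control replicate 2 the number that rose was 9. Tbx3, a T-box factor downstream of LIF that also promotes extraembryonic endoderm, read 185, 158 and 146 in the controls and 596, 510.3, 571 and 503 at the low dose, a change of 1.69 ± 0.14 (SE) on the log2 scale, 3.22-fold (adjusted p = 2.8e-06). Fbxo15, an F-box gene driven by Oct4 and Sox2, read 967, 846 and 814 in the controls and 2117, 2381, 2652 and 1876 at the low dose, a change of 1.35 ± 0.13 (SE) on the log2 scale, 2.55-fold (adjusted p = 7.0e-06). Nr5a2, an orphan receptor that supports Pou5f1 transcription, rose by 1.29 (adjusted p = 5.2e-04), while its dimmer probe set did not pass (0.21). Trim28, a corepressor that silences retroelements and a marked gene, read 4806, 3863 and 5065 in the controls and 9543, 11339.5, 10195 and 10194 at the low dose, a rise of 1.18 (adjusted p = 1.6e-04).

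The core factors, all marked genes, changed less. Pou5f1 read 3291, 4567 and 5098 in the controls and 5437, 3326, 4683 and 5068 at the low dose, overlapping throughout, with a log2 change of 0.10 (adjusted p = 0.726). Nanog read 3788, 3310.3 and 3284 in the controls and 5378, 6017, 6207 and 5088 at the low dose, a rise of 0.71 (adjusted p = 0.00107), and its dimmer probe set did not pass (0.58, adjusted p = 0.136). Sox2 read 4034, 3124 and 3788 in the controls and 5713, 6099, 6516 and 4202 at the low dose, a rise of 0.61 (adjusted p = 0.00951), a call lost with median scaling and leaving out control replicate 2 (adjusted p = 0.0546 to 0.124). Dppa3 (Stella), a maternal factor that guards methylation, read 84.3, 85.3 and 76.5 in the controls and 13.6, 28.8, 33.7 and 17.4 at the low dose, a change of -1.51 ± 0.23 (SE) on the log2 scale, 2.84-fold lower (adjusted p = 3.5e-04). Utf1 and Dppa4, chromatin-bound proteins of stem cells and both marked, were at -0.89 and -0.57 (adjusted p = 0.00167 and 0.00549), and Dppa2, the partner of Dppa4, at -0.51 (adjusted p = 0.0104). Gbx2, a homeobox gene downstream of LIF that is also a neural marker, read 523, 408 and 499 in the controls and 141, 106, 87.1 and 117 at the low dose, a change of -2.0 ± 0.18 (SE) on the log2 scale, 4.0-fold lower (adjusted p = 3.6e-06). At the high dose Dppa3 was higher than at the low dose by 2.01 ± 0.20 (SE, adjusted p = 3.1e-06) and Tbx3 lower by -1.68 ± 0.12 (SE, adjusted p = 1.5e-07).

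**Figure D4:**
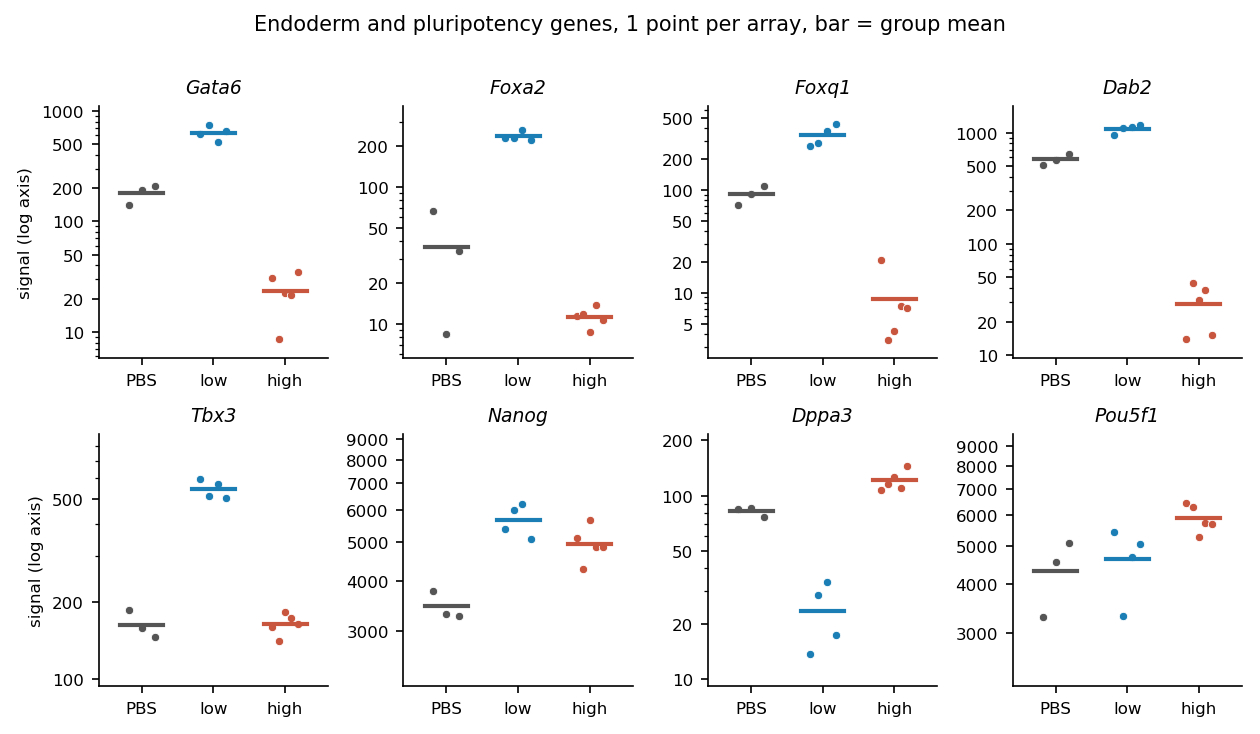
Signal of 4 primitive endoderm genes (top) and 4 pluripotency genes (bottom) on each array, on a log axis, for PBS controls (n = 3), low dose (n = 4) and high dose (n = 5), with bars at the group means. The 4 endoderm genes are highest at the low dose and lowest at the high dose, Tbx3 is high at the low dose alone among these groups, Dppa3 is low there, and the Pou5f1 points of the controls and the low dose overlap.

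Primitive endoderm genes, 37 tested of 43 on the array, rose in 10 cases (27.0%) and fell in 4 (10.8%), with a median of 0.30 (0.13 after median scaling, with 7 higher and 5 lower), and 2 fell without control replicate 1. In bulk RNA, more cells of a type and more RNA per cell cannot be told apart. Of the 14 tested markers of this lineage 6 were higher and 0 lower (6 and 0 in limma's test at an unadjusted p under 0.05), and their summed signal was 6095 to 9098 in the controls, 9366 to 9899 at the low dose and 1068 to 1268 at the high dose. Gata6, the factor that specifies the lineage, read 141, 193 and 211 in the controls and 618, 745, 526 and 653 at the low dose, a change of 1.76 ± 0.26 (SE) on the log2 scale, 3.39-fold (adjusted p = 2.4e-04), while its 2 dimmer probe sets did not pass (0.00 and 0.63). Foxa2, a forkhead factor of endoderm, read 67.0, 8.38 and 33.9 in the controls and 228, 226, 262 and 220.2 at the low dose, a change of 2.62 ± 0.34 (SE) on the log2 scale, 6.14-fold (adjusted p = 1.1e-04), or 1.91 with 4 times the offset. Foxq1, another forkhead gene, read 71.7, 91.6 and 108 in the controls and 267, 284, 374 and 442 at the low dose, a change of 1.80 ± 0.28 (SE) on the log2 scale, 3.47-fold (adjusted p = 4.3e-04). In these genes the groups stood apart on every array.

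Not all factors of the lineage passed. Gata4 read 202, 256 and 169 in the controls and 387, 152, 179.8 and 409.8 at the low dose, and its log2 change was 0.31 (adjusted p = 0.494), while Sox17 was at 0.05 (adjusted p = 0.9). In both the groups overlapped. Dab2, an endocytic adaptor, read 515, 567 and 649 in the controls and 957, 1102, 1127 and 1167 at the low dose, a rise of 0.91 (adjusted p = 0.0148), and its 2 other probe sets rose by 1.07 and 1.00. Pdgfra, the receptor that marks the lineage early, read 267, 238 and 253 in the controls and 449, 588, 748 and 489.6 at the low dose, a rise of 1.11 (adjusted p = 0.016), and by 0.84 on its second probe set. The Dab2 call was lost with a floor in place of the offset (adjusted p = 0.0531) and the Pdgfra call under a floor in place of the offset and leaving out control replicate 2 (adjusted p = 0.054 to 0.0555). Aqp8, a water channel that also passes peroxide, read 96.8, 128 and 94.5 in the controls and 273, 321, 289 and 292 at the low dose, a change of 1.39 ± 0.17 (SE) on the log2 scale, 2.63-fold (adjusted p = 4.6e-05). The prolyl hydroxylase gene P4ha2, which acts on collagen, rose by 0.67 (adjusted p = 0.00286), a call lost with median scaling (adjusted p = 0.0508). Its dimmer probe set did not pass (0.17, adjusted p = 0.633).

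Of the keratin genes of the list Krt19 and Krt18 fell, while Krt8 did not pass (-0.14, adjusted p = 0.624). Krt19 read 213, 138 and 117 in the controls and 58.8, 33.9, 44.8 and 42.7 at the low dose, a change of -1.57 ± 0.24 (SE) on the log2 scale, 2.97-fold lower (adjusted p = 3.5e-04). Krt18 was at -0.91 (adjusted p = 0.0115), lost with leaving out control replicate 1 (adjusted p = 0.0643). At the high dose the lineage genes were far lower than at the low dose. The difference was -4.31 ± 0.23 (SE, adjusted p = 2.1e-09) for Gata6, -3.52 ± 0.30 (SE, adjusted p = 6.2e-07) for Foxa2, -4.27 ± 0.25 (SE, adjusted p = 7.7e-09) for Foxq1, -4.90 ± 0.22 (SE, adjusted p = 3.7e-10) for Dab2 and -4.04 ± 0.27 (SE, adjusted p = 4.8e-08) for Pdgfra. Of the 37 genes 27 were lower and 2 higher at the high dose than at the low dose, where 29.0% of all genes differed in either direction.

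The largest falls of the comparison were those of S100a6 and Cdkn1c. S100a6 (calcyclin), a calcium-binding protein of growing and differentiating cells, read 1875, 568 and 964 in the controls and 38.7, 73.7, 69.6 and 53.1 at the low dose, a change of -3.92 ± 0.28 (SE) on the log2 scale, 15.1-fold lower (adjusted p = 6.9e-07). Cdkn1c, the imprinted p57 inhibitor of cyclin-dependent kinases, read 494, 347 and 444 in the controls and 54.2, 26.5, 44.7 and 45.6 at the low dose, a change of -3.07 ± 0.19 (SE) on the log2 scale, 8.38-fold lower (adjusted p = 1.1e-07). The lowest control array lay well above the highest low-dose array in both. Tmsb4x, the actin-sequestering thymosin beta 4, read 2287, 1442 and 1479 in the controls and 539.9, 285, 341 and 502 at the low dose, a change of -2.05 ± 0.21 (SE) on the log2 scale, 4.13-fold lower (adjusted p = 1.0e-05). The kinase inhibitors Cdkn1a and Cdkn1c changed in opposite directions.

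Other large falls were seen in genes of different kinds. Adam19, a membrane metalloprotease, read 273, 261 and 244 in the controls and 43.5, 35.8, 51.8 and 57.3 at the low dose, a change of -2.25 ± 0.23 (SE) on the log2 scale, 4.76-fold lower (adjusted p = 1.1e-05). Rarg, the retinoic acid receptor gamma, read 119.7, 219.9 and 208 in the controls and 27.4, 19.4, 20.9 and 103 at the low dose, a change of -2.07 ± 0.38 (SE) on the log2 scale, 4.21-fold lower (adjusted p = 0.00126), with low-dose replicate 4 nearest the controls. Cldn6, a tight junction claudin of early epithelia, read 256, 365 and 379 in the controls and 97.4, 69.4, 67.2 and 93.1 at the low dose, a change of -1.90 ± 0.19 (SE) on the log2 scale, 3.73-fold lower (adjusted p = 9.2e-06). The retinoic acid binding gene Crabp1 was at -1.27 (adjusted p = 0.00263). Rarg and Crabp1 were the members lower among 11 tested genes of the retinoic acid pathway (18.2%), with a median of -0.08. No member rose in limma's test, at an adjusted p or at an unadjusted p under 0.05 (0 genes).

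The transcription elongation gene Tcea3 was at -1.94 (adjusted p = 2.3e-06) and Cds2, which makes CDP-diacylglycerol for phosphoinositides, at -2.03 (adjusted p = 2.0e-05). The other genes among the 15 largest falls of unmarked genes without overlap were dim, with control means up to 155 signal units. Fxyd3, a regulator of the sodium pump, was at -2.07 (adjusted p = 0.0032), the phosphodiesterase gene Pde9a at -1.78 (9.5e-04), the galectin gene Lgals9 at -1.70 (0.0024), the surface glycoprotein gene Thy1 at -1.66 (9.5e-04) and the fatty acid transporter gene Slc27a1 at -1.65 (0.00304). With 4 times the offset Fxyd3 was at -1.23, Pde9a at -1.13 and Slc27a1 at -1.01. In the high minus low contrast S100a6 was higher at the high dose by 3.31 ± 0.25 (SE, adjusted p = 1.7e-07) and Cdkn1c by 3.68 ± 0.17 (SE, adjusted p = 4.4e-10), while for Fxyd3 the contrast did not pass (0.17 ± 0.38 (SE, adjusted p = 0.78)).

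**Figure D5:**
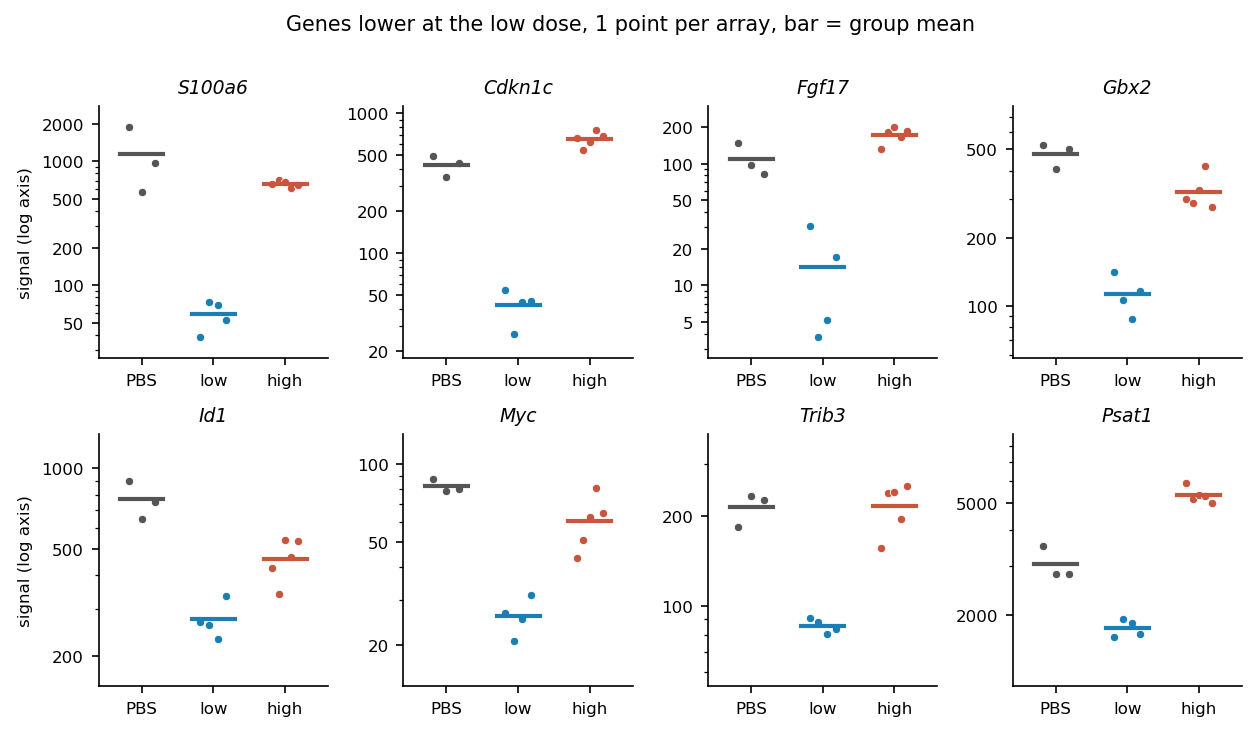
Signal of 8 genes that were lower at the low dose on each array, on a log axis, for PBS controls (n = 3), low dose (n = 4) and high dose (n = 5), with bars at the group means. In every panel all low-dose points lie below all control points, and the high-dose means lie above the low-dose means.

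The 15 largest rises of unmarked genes without overlap held further genes. Jade1, a subunit of the HBO1 histone acetyltransferase, read 150.3, 140.3 and 153 in the controls and 591, 511, 744 and 629 at the low dose, a change of 1.98 ± 0.17 (SE) on the log2 scale, 3.95-fold (adjusted p = 2.9e-06). Dido1, a chromatin reader needed for stem cell differentiation, read 121, 95.5 and 84.2 in the controls and 436, 345, 359 and 428 at the low dose, a change of 1.87 ± 0.21 (SE) on the log2 scale, 3.66-fold (adjusted p = 3.0e-05). Both were lower at the high dose than at the low dose, by -1.26 ± 0.15 (SE, adjusted p = 1.5e-05) and -1.72 ± 0.19 (SE, adjusted p = 6.2e-06). Uhmk1, a kinase of splicing factors, read 194, 155 and 178 in the controls and 425, 2551, 763 and 942 at the low dose, where low-dose replicate 2 stood apart, and its rise of 2.36 (adjusted p = 0.0177) was lost with leaving out control replicate 2 and leaving out low-dose replicate 2 (adjusted p = 0.0519 to 0.0563). Its second probe set rose by 0.80 (adjusted p = 0.00206). The dim genes Zfp59, Ighv3-6 and Ido1 rose by 1.82, 1.98 and 1.84 (adjusted p = 2.1e-04, 0.00376 and 0.02), and the Ido1 call was lost with leaving out control replicates 2 and 3 and leaving out low-dose replicate 1 (adjusted p = 0.0587 to 0.0749). With 4 times the offset these rises were 0.85, 1.17 and 1.07.

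Rpl41, which encodes the smallest ribosomal protein, had the largest change of all genes. It read 160.0, 267 and 44.2 in the controls and 16232, 23838, 23082 and 14976 at the low dose, a change of 7.13 on the log2 scale (adjusted p = 2.5e-08), and its high-dose values were 34106, 34685, 23252, 19733 and 24340.4. Without control replicate 3 the change was 6.46. Its low-dose values were among the brightest on the array although its control mean was far below the mark of 2000. Of 29 tested cytosolic ribosomal protein genes 18 rose (62.1%) and 0 fell (23 and 1 in limma's test at an unadjusted p under 0.05), with a median of 0.94, but 18 of the 29 were marked. Without the marked probe sets 4 rose, and after quantile normalization 13 rose and 5 fell, with a median of 0.46. The marked genes Rpl8, Rps18 and Rplp0 rose by 1.61, 1.60 and 1.53 (adjusted p = 8.7e-05, 1.5e-04 and 3.5e-04), and after quantile normalization Rps18 was at 0.95 and Rplp0 at 0.85. Rpl19 rose by 1.52 on its marked probe set, while its dimmer one was at -0.07 (adjusted p = 0.944). Eef1a1, the elongation factor that brings aminoacyl-tRNA to the ribosome and a marked gene, read 4184, 3161 and 4947 in the controls and 14382, 24225, 22627 and 13892 at the low dose, a change of 2.17 ± 0.24 (SE) on the log2 scale, 4.51-fold (adjusted p = 2.2e-05). Pkm is a glycolytic enzyme whose marked probe set was at 1.04 and whose dimmer one was at -0.40 (adjusted p = 0.203), so its readings had opposite signs.

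Genes for mitochondrial ribosomal proteins, which translate the respiratory chain subunits of the mitochondrial genome, fell. Of 59 tested 22 fell (37.3%) and 0 rose, with a median of -0.29, and 57 of the 59 were unmarked. Leaving out any 1 array gave 18 to 22 falls and 0 rises. The 2 other scalings gave 28 and 23 falls and 0 rises. At an unadjusted p under 0.05, limma gave 1 rise and 29 falls. Mrpl34, a subunit of the large ribosome, read 1194, 1328 and 1465 in the controls and 655, 698, 587 and 639 at the low dose, a change of -1.03 ± 0.12 (SE) on the log2 scale, 2.04-fold lower (adjusted p = 2.9e-05). Mrpl58 (a peptidyl-tRNA hydrolase), Mrpl23 and Mrps12 were at -0.96, -0.95 and -0.87 (adjusted p = 3.3e-04, 6.3e-04 and 9.3e-04). The shares of falls also moved with the signal over all genes. Of genes with a mean signal up to 100 4.04% fell, of those from 300 to 1000 20.7%, and of those from 1000 to 2000 23.6%. The part of the signal level in the falls of this list was not tested.

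Of 44 proteasome genes 11 fell (25.0%) and 0 rose, with a median of -0.11, and 6 fell without the marked probe sets. At an unadjusted p under 0.05, limma gave 2 rises and 14 falls. Psmb10, the immunoproteasome peptidase, read 492, 589 and 568 in the controls and 250.1, 283, 189 and 250.1 at the low dose, a change of -1.15 ± 0.14 (SE) on the log2 scale, 2.22-fold lower (adjusted p = 4.8e-05). The cap subunit gene Psmd8 and the assembly chaperone gene Psmg2 were at -1.09 and -1.22 (adjusted p = 3.0e-05 and 0.00154), and the marked Psmb6 and Psmd4 at -1.12 and -0.96 (3.6e-04 and 7.9e-05). Of 69 respiratory chain genes 14 fell (20.3%) and 4 rose (5.8%), and after median scaling 20 fell and 1 rose. Without control replicate 1 there were 9 falls, and without the marked probe sets 9 falls and 2 rises. The number that rose was 1 without control replicate 2 and 2 without control replicate 3 or low-dose replicate 2 or 3. The median over members of the mean signal was 1372 in the proteasome list and 1386 in the respiratory chain list. Over all genes with a mean signal from 1000 to 2000, 23.6% fell and 11.6% rose. The part of the signal level in the falls of these 2 lists was not tested. Ndufab1, the mitochondrial acyl carrier protein, was at -1.15 (adjusted p = 9.9e-04) and the ATP synthase gene Atp5e at -1.02 (1.6e-04). The other marked genes with the largest falls were Hmces, a shield of abasic DNA, at -1.87 (adjusted p = 2.9e-06), the pyrophosphatase gene Ppa1 at -1.14 (2.2e-05), Abcf1 at -0.99 (4.8e-04) and the farnesyl diphosphate synthase gene Fdps at -0.97 (1.9e-04). A dimmer Fdps probe set fell as well (-0.70, adjusted p = 0.00139), while the dimmest, of opposite sign, did not pass (0.98, adjusted p = 0.0578).

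Chromatin silencing genes, 40 tested, split evenly, with 7 higher (17.5%) and 7 lower (17.5%) and a median of 0.07 (4 higher and 12 lower after median scaling). Among the lower members, Ehmt2 (G9a), the H3K9 methyltransferase, read 1385, 1939 and 1698 in the controls and 681, 593, 562 and 841 at the low dose, a change of -1.31 ± 0.16 (SE) on the log2 scale, 2.49-fold lower (adjusted p = 4.5e-05). Ezh2, the methyltransferase of Polycomb complex PRC2, read 1452, 1184 and 1136 in the controls and 451, 580.0, 619 and 689 at the low dose, a change of -1.10 ± 0.16 (SE) on the log2 scale, 2.14-fold lower (adjusted p = 2.0e-04). Hdac1, a histone deacetylase, and Uhrf1, which brings Dnmt1 to replicated DNA, were at -0.85 and -0.71 (adjusted p = 3.6e-04 and 3.6e-04). Higher members were the PRC1 subunit gene Bmi1 at 0.99 (adjusted p = 0.0142) and Smarca5, the remodeller of the ISWI family, at 0.88 (adjusted p = 0.00526), whose dimmer probe set did not pass (0.13).

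Of 51 tested DNA repair and checkpoint genes 5 rose (9.8%) and 7 fell (13.7%), near the shares of all genes, with a median of -0.11. Without control replicate 2 there were 2 rises and 3 falls, without control replicate 3 there were 3 rises, and without low-dose replicate 2 there were 4 falls. After median scaling 1 rose and 14 fell, and after quantile normalization 4 rose and 11 fell. Trp53bp1, which marks double-strand breaks for end joining, read 180.4, 159 and 143 in the controls and 96.1, 86.7, 73.5 and 73.5 at the low dose, a change of -0.89 ± 0.19 (SE) on the log2 scale, 1.85-fold lower (adjusted p = 0.0032). Xrcc6 (Ku70), which caps broken ends, and Mre11a, a nuclease of the break sensor, were at -0.63 and -0.63 (adjusted p = 0.00263 and 0.0063). Among 30 tested apoptosis regulators 5 rose (16.7%) and 4 fell (13.3%), with a median of 0.14. Bcl2l1 (Bcl-xL), which protects mitochondria, rose by 0.60 (adjusted p = 0.00388), Casp2, an initiator caspase, by 0.71 (0.00323) and the caspase 8 inhibitor Cflar by 0.92 (0.0107). Pdcd4, a translation inhibitor, read 396, 269.5 and 311 in the controls and 644, 1097, 927 and 592 at the low dose, a change of 1.27 ± 0.24 (SE) on the log2 scale, 2.41-fold (adjusted p = 0.00165). The death-promoting Bcl2l11 (Bim) was at -0.73 (adjusted p = 0.00543), while its second probe set was at 0.43 (adjusted p = 0.196).

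Of 47 replication genes 5 rose (10.6%) and 12 fell (25.5%), with a median of -0.04, and the number that rose was 2 or 3 without control replicate 1, 2 or 3, without low-dose replicate 2 or 3 or without the marked probe sets. After median scaling 1 rose and 15 fell. The median over the replication genes of the mean signal was 612, and 20.7% of all genes with a mean signal from 300 to 1000 fell. The part of the signal level in these falls was not tested. The origin recognition gene Orc2 rose by 1.15 (adjusted p = 0.00108), while Orc4 and the clamp loader gene Rfc2 were at -0.68 and -0.65 (adjusted p = 0.00579 and 0.00602). Of 53 mitotic regulators 6 rose (11.3%) and 7 fell (13.2%), near the shares of all genes. After median scaling 0 rose and 14 fell, and after quantile normalization 7 rose and 12 fell (8 and 13 in limma's test at an unadjusted p under 0.05 with the deposited scaling). The number that rose was 1 without control replicate 2 or 3 and 3 without low-dose replicate 2 or 4, and the number that fell 3 without control replicate 1 and 4 without control replicate 2 or low-dose replicate 3. Kif23, a kinesin of the midbody, read 678, 809 and 823 in the controls and 415, 368, 328 and 387 at the low dose, a change of -1.02 ± 0.16 (SE) on the log2 scale, 2.03-fold lower (adjusted p = 4.9e-04).

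Of 22 glycolysis genes 3 rose (13.6%) and 6 fell (27.3%), with a median of -0.21. All 3 that rose were marked. The median over members of the mean signal was 1234, and 23.6% of all genes with a mean signal from 1000 to 2000 fell. Without control replicate 2 there were 1 rise and 2 falls, after median scaling 1 and 9, and after quantile normalization 1 and 8. Hk2, the first enzyme of the pathway, read 1709.7, 1397 and 1398 in the controls and 726, 993, 815 and 738 at the low dose, a change of -0.87 ± 0.13 (SE) on the log2 scale, 1.83-fold lower (adjusted p = 2.8e-04). The enolase gene Eno3 was at -1.16 (adjusted p = 1.5e-04). Of 17 cholesterol synthesis genes 1 rose (5.88%) and 6 fell (35.3%), with a median of -0.26, but 3 fell without control replicate 1 or 2 and 2 without low-dose replicate 2. Mvd, the decarboxylase of the mevalonate pathway, read 241, 284 and 331 in the controls and 131, 98.2, 141 and 139 at the low dose, a change of -1.11 ± 0.18 (SE) on the log2 scale, 2.16-fold lower (adjusted p = 4.6e-04). Of 17 hypoxia genes 1 rose (5.88%) and 4 fell (23.5%), with a median of -0.08, but 2 fell without control replicate 2 or 3 or low-dose replicate 2 or 3. The median over the hypoxia genes of the mean signal was 337, and 20.7% of all genes with a mean signal from 300 to 1000 fell. Of 15 NF-kB targets 0 rose and 4 fell (26.7%), with a median of -0.18 (2 and 5 in limma's test at an unadjusted p under 0.05). The NF-kB members Ltb (lymphotoxin beta) and Bcl3 were at -1.45 and -1.02 (adjusted p = 0.00148 and 0.00921).

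Of 20 tested mesoderm and neuroectoderm markers 1 rose (5.0%) and 6 fell (30.0%), with a median of -0.03. Besides Gbx2 and Bmp4, the neuronal genes Ina (an intermediate filament), Sox11 and Gap43 were at -1.59, -1.12 and -1.07 (adjusted p = 2.1e-04, 0.00326 and 0.00719). The dimmer Sox11 probe set did not pass (-0.52, adjusted p = 0.138). Ina read 325, 242 and 168 in the controls and 83.1, 59.6, 54.7 and 98.4 at the low dose, and its second probe set fell as well, by 1.48 on the log2 scale (adjusted p = 0.00128). The fibroblast list, 17 tested, had 3 higher (17.6%) and 2 lower (11.8%, S100a6 and Thy1), with a median of 0.29.

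Of 52 splicing factor and hnRNP genes 9 rose (17.3%) and 4 fell (7.69%), with a median of 0.13 (-0.06 after median scaling, with 3 higher and 9 lower) with 5 rises without control replicate 2 and 2 falls without low-dose replicate 2. Srsf5, an SR protein that responds to growth signals, read 1609, 1222 and 1455 in the controls and 2938, 3650.3, 3822 and 2654 at the low dose, a change of 1.18 ± 0.18 (SE) on the log2 scale, 2.27-fold (adjusted p = 3.6e-04), and Hnrnph1 rose by 0.73 (adjusted p = 0.00105). Of 46 translation factors 5 rose (10.9%) and 9 fell (19.6%), with a median of 0.03, and 3 rose without control replicate 3 and 2 without the marked probe sets. After median scaling 1 rose and 12 fell. The median over the translation factors of the mean signal was 678, and 20.7% of all genes with a mean signal from 300 to 1000 fell. Eif2b5 and Eif2b2, subunits of the exchange factor on which the integrated stress response acts, were at -0.77 and -0.81 (adjusted p = 5.2e-04 and 8.5e-04). Of 77 Zfp genes 15 rose (19.5%) and 6 fell (7.79%), with a median of 0.24. After median scaling 5 rose and 9 fell, and the number that rose was 7 without control replicate 2 and 8 without control replicate 3 or low-dose replicate 1, and the number that fell 2 without control replicate 2 or low-dose replicate 3. Zfp281, a zinc-finger repressor that binds the Nanog promoter, read 513, 439 and 368 in the controls and 965, 832, 1042 and 1106 at the low dose, a change of 1.15 ± 0.18 (SE) on the log2 scale, 2.22-fold (adjusted p = 3.5e-04). Of 13 histone genes 0 fell (also 0 in limma's test at an unadjusted p under 0.05) and 1 rose, H1f2, by 1.77 (adjusted p = 0.00334). Actb outside the control probe sets read 273, 122 and 289 in the controls and 177, 1158, 281 and 207 at the low dose, with low-dose replicate 2 far above the rest, and did not pass (0.62, adjusted p = 0.518).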

How the data were processed

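Values were deposited as linear intensities, 1 for each probe set and array, and are MAS5 signals per the submitters' processing notes. Their scaling target is not given in the sources used here. Across the deposited intensities the means after trimming 2% at each end were equal to within 0.0195% across the 12 arrays (tolerance 10%), so the scaling was kept. The 20th percentile of the values, 10.07 signal units, was added as an offset before log2, which understates the changes of dim genes. Probe sets above the 30th percentile of mean log2 were tested, with a mean per group over all 12 arrays, in limma 3.58.1 (R 4.3.3, eBayes with trend), two-sided, with Benjamini-Hochberg adjustment. SE is that of the model. Quality measures were compared by exact permutation over 35 regroupings.

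Probe sets were named from the platform annotation, updated through RefSeq records: 10833 had 1 symbol, 396 several and 1193 none. The brightest tested probe set stood for a gene, and 1167 genes had more than 1. A probe set was marked where its control mean exceeded 2000. The arrays have no genome build, and promoter windows came from RefSeq, GRCm38.p6.

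The members and gene lists were chosen with earlier results of these data known, so no list is independent support, and lists are described by counts and medians without a set test. Counts at an unadjusted p under 0.05 are given without the share over all genes, so they are not read as results about a list. Genes were named by a rule: the 15 largest rises and 15 largest falls among called unmarked genes without overlap of the groups (32.4% of all genes had none), 6 and 6 among such marked genes, up to 6 members per list, and a fixed set of stress and pluripotency genes. One result that the rule named is not reported here. Gapdh has no tested probe set with 1 symbol, and Jun and Trp53inp1 were not among the tested genes. Chosen after their values were seen were Aars, Asns, Atf4, Bmp4, Canx, Dab2, Dnajb1, Dppa2, Dppa4, Epha2, Gata4, Hdac1, Hes1, Hspa5, Klf6, Krt8, Mycl, Nodal, Nr5a2, Odc1, Pdgfra, Psat1, Psph, Sat1, Slc7a3, Sox17, Tars, Tead2, Uhrf1 and Utf1. The steps were tested on simulated data for low dose against control over 8695 probe sets. They found 61% of the changes of log2 1, 94% of those of log2 2, and 10 false calls. The simulated noise was independent between probe sets and held no shift of whole arrays, so this test does not cover errors of scaling. Alternatives were quantile and median scaling, 4 times the offset or a floor, a stricter filter (50th percentile) or none, array weights, a constant variance prior, the 7 arrays alone, the replicate block, all probe sets of a gene averaged, leaving out the marked probe sets, and leaving out each array in turn.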

Additional observations from a re-analysis of the deposited data

Results flagged for a closer look

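In each group of 4 or 5 arrays, the array farthest from the others was compared with Dixon's 95% critical value for every gene named. 23 of 360 gene and group pairs exceeded it, and chance alone gives about 1 in 20. The control group of 3 arrays was too small to test. Among low-dose arrays, replicate 2 stood highest for Actb (1158), Gstm2 (297), Hmox1 (1270), Klf4 (3737) and Nr5a2 (751), replicate 1 for Psmd8 (558), replicate 3 for Bmi1 (338), and replicate 4 for Rarg (103) and Tpm4 (1517). Among high-dose arrays, replicate 1 stood apart for Bcl2l1 (281), Fgfr3 (87.9) and Foxq1 (21.1), replicate 2 for Actb (745), Bmp4 (641), Ier2 (1330), Krt19 (74.2), Orc4 (216), Slc7a3 (807), Tmsb4x (1098) and Uhmk1 (3525), and replicate 4 for Atf4 (2445), Pde9a (80.6) and Zfp36l1 (852). Leaving out the low-dose array in question did not end the call of Bmi1, Gstm2, Klf4, Nr5a2, Psmd8, Rarg or Tpm4. Actb and Hmox1 did not pass with or without it.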

How the results depend on the processing

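The count of probe sets past the threshold stayed within 1.5 times of 2087 under every alternative run, from 1425 without control replicate 2 to 2534 with array weights. Median scaling gave 574 higher and 1497 lower probe sets, 8 p53 targets that rose (14 with the deposited scaling) and 11 immediate-early transcription factors that rose (18). Leaving out 1 array at a time gave 1425 to 2133 called, 777 to 1156 higher and 648 to 977 lower probe sets, 11 to 14 p53 targets that rose and 2 to 4 that fell, and 13 to 20 immediate-early factors that rose and 3 to 4 that fell. With the replicate number as a block 1852 probe sets passed, 993 higher and 859 lower. Same-numbered arrays did not deviate together (correlations of -0.08, -0.18 and -0.05 between groups), so the numbers were not taken to pair the samples. Of 4096 values of named genes (low dose against control) under alternatives 4021 kept direction and side of the threshold, 68 lost the threshold, 7 passed it and 0 changed direction while called. Over all probe sets, 1812 were called both with the deposited scaling and after quantile normalization, and 10 of these changed sign. Array signals have no read depth, so the number of arrays and, for dim genes, the signal over background limit the precision.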

Other observations

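Odc1, the first enzyme of polyamine synthesis and chosen after its values were seen, read 1620.4, 1117 and 921 in the controls and 762, 732, 651 and 819 at the low dose, a change of -0.68 ± 0.16 (SE) on the log2 scale, 1.60-fold lower (adjusted p = 0.00604) in limma's test. Sat1, which acetylates polyamines, was lower as well, at -1.11 (limma, adjusted p = 0.0022). Cox8c, a testis form of a respiratory chain subunit, read 169, 190.0 and 171 in the controls and 366, 434, 298 and 325 at the low dose and rose by 0.96 (limma, adjusted p = 0.00139), against 14 falls among 69 genes of the chain.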
